A study of Mus musculus with 18 samples.

Results

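The uninfected TKO cells exposed to 4-hydroxytamoxifen or vehicle for 4 h make up 6 of the 18 arrays of a mouse expression series. They were chosen by their titles, 3 arrays with 100 nM 4-hydroxytamoxifen (4-OHT) and 3 with vehicle, and each 4-OHT array was set against the vehicle array of the same replicate number. The study gave TKO cells, a mouse line labelled as telomere dysfunctional, a fusion of p53 and the estrogen receptor (p53ER) that 4-OHT switches on, and looked for p53 targets at 4 h. Its title names ZNF365, whose mouse counterpart is Zfp365. Both p53ER and uninfected cells were sampled at 0 h, after 4 h of vehicle and after 4 h of 4-OHT, with 3 arrays a group. All cells were TKO cells grown in DMEM with 10% serum. The uninfected cells received no p53ER construct, and no group carrying an empty construct is among the 18 arrays. The labels do not name the vehicle, spell out TKO or say whether replicates were separate cultures, so a p-value here speaks only of how far these arrays differ, which could be technical variation. The uninfected comparison answers what 4-OHT does to these cells when no fusion is there to receive it.

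4-OHT is the active form of the breast cancer drug tamoxifen. It binds the hormone-binding part of the estrogen receptors, and a protein fused to that part is held inactive by chaperones until the drug arrives, which is why 4-OHT serves as a switch for fusion proteins and for Cre recombinase. The drug also has other reported partners: the membrane receptor Gper1, the estrogen-related receptors, the aryl hydrocarbon receptor, which turns on enzymes of drug metabolism, and Ebp, a sterol isomerase of cholesterol synthesis. Estrogen receptors bind DNA at paired AGGTCA elements and the aryl hydrocarbon receptor at GCGTG, and p53 binds paired elements built around CATG, as in the promoter of the cell cycle inhibitor Cdkn1a.

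Sequences of this kind upstream of measured genes are shown as examples of such elements. They come from RefSeq promoters on GRCm38.p6, are written 5′ to 3′ on the gene's strand, and have the matching letters in capitals. The stretch of Cdkn1a lies at chr17:29090908-29090967 on the plus strand, and its first match starts 48 bases before one of the gene's listed starts. Those of Cyp1b1 (chr17:79715110-79715160, minus strand, 76 bases before the start) and Tiparp (chr3:65528254-65528304, plus strand, 170 bases before) hold GCGTG on the opposite strand, read here as CACGC. That of Ctsd (chr7:142388040-142388077, minus strand, 241 bases before) holds 1 AGGTCA element on the opposite strand, read as TGACCT.
Cdkn1a: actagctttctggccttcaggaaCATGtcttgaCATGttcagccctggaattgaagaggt
Cyp1b1: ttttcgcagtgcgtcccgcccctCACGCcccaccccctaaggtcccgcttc
Tiparp: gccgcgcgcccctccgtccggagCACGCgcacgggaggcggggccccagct
Ctsd: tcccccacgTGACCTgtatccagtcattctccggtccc

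No gene changed past the threshold in uninfected cells. Of 10916 genes tested, 0 (0%) had an adjusted p under 0.05 with limma, and the smallest adjusted p was 0.392. The count was 2 (Galm and Zap70, both lower) without replicate 2, 1 (Gpank1, higher) without replicate 3 and 0 without replicate 1. At an unadjusted p under 0.05 there were 607 genes (5.56%), 260 higher with 4-OHT (2.38%) and 347 lower (3.18%). All 3 pairs were higher for 1343 genes (12.3%) and lower for 1455 (13.3%). The 3 arrays with 4-OHT lay wholly above the 3 with vehicle for 265 genes (2.43%) and wholly below for 201 (1.84%). Here and below, levels are log2 of the scaled array signal plus an offset of 3.93, so that a signal of 0 reads 1.97, and a change is the mean of the 3 paired differences on that scale.

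The fit also bounded how much could have changed. The 95% interval of the change lay within 2-fold of no change for 9954 of the genes (91.2%), and within 0.5 on the log2 scale for 6656 (61%). The median change was -0.00 and 49.9% of genes were higher. A mean change over 2-fold was seen for 43 genes (0.394%), and in 30 of them all 3 pairs went one way. Those 43 were dim, with a median level of 4.99 against 6.83 for all genes tested.

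**Figure D1:**
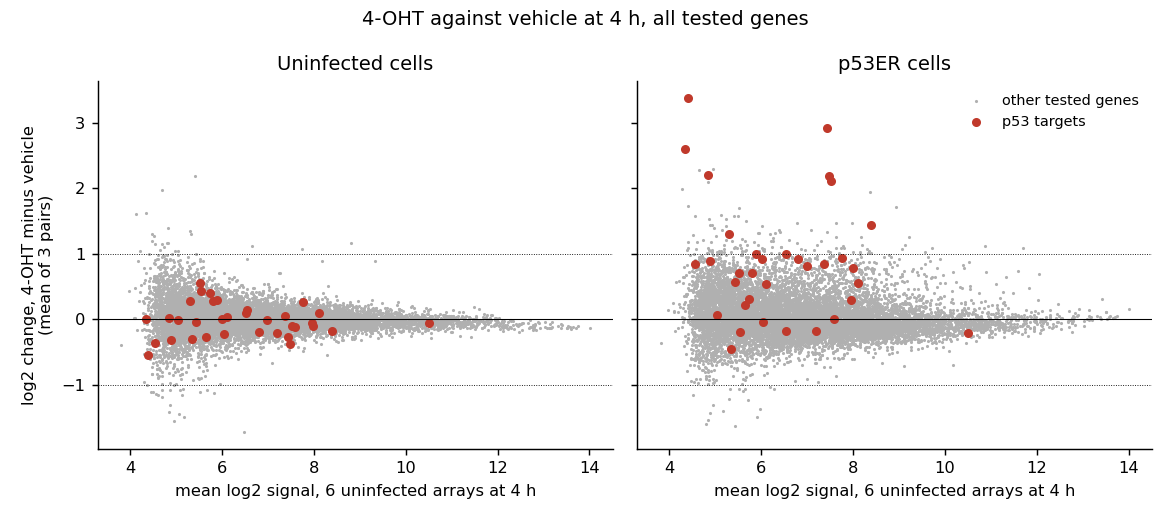
Change with 4-OHT (vertical axis, log2, mean of 3 pairs) against the mean log2 signal of the 6 uninfected arrays (horizontal axis), for uninfected cells (left) and p53ER cells (right). Each point is 1 tested gene, with the 34 p53 targets in red and dotted lines at 2-fold. In uninfected cells the p53 targets lie between -0.55 and 0.55, and in p53ER cells they reach 3.38.

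The 3 pairs did not share a direction across genes. Over the 10916 genes, paired differences correlated at 0.02 between pairs 1 and 2, -0.01 between pairs 1 and 3 and 0.01 between pairs 2 and 3, as a description across genes, which are not independent replicates. In p53ER cells the same correlations were 0.08, -0.01 and 0.08. The SD of the paired differences over genes was 0.34, 0.39 and 0.40 in uninfected cells, against 0.71, 0.45 and 0.47 in p53ER cells. The vehicle array of p53ER pair 1 is 1 of 3 arrays of other groups that lay apart. How much of the 0.71 came from that array was not tested. Genes over 2-fold apart numbered 182, 311 and 357 in the single uninfected pairs, and 43 on the mean of the pairs.

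The receptor that the fusion borrows was near the floor in uninfected cells. The Esr1 (estrogen receptor alpha) probe set with the highest mean read 4.25, 3.54 and 3.04 with 4-OHT, 4.32, 4.78 and 2.92 with vehicle and 4.58, 4.01 and 4.51 at 0 h. In p53ER cells the same probe set read 8.16 ± 1.19 at 0 h, 8.35 ± 1.82 with vehicle and 7.98 ± 1.17 with 4-OHT (SD, n = 3 each). No uninfected array reached the lowest p53ER array, which was 6.89. The other 2 Esr1 probe sets averaged 4.67 and 3.65 over the 18 arrays and read 5.04 and 4.06 at 0 h in p53ER cells. The change of Esr1 in uninfected cells was -0.40 (95% interval -1.72 to 0.93), with pair 2 at -1.24 and the other pairs at -0.07 and 0.12.

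The other candidate receptors of 4-OHT were dim or moved little. Esr2, estrogen receptor beta, had a mean level of 3.28 over the 18 arrays and was not among the genes tested. Gper1 read 4.46, 5.10 and 4.97 with 4-OHT and 4.60, 5.11 and 4.53 with vehicle, so the groups overlapped, and its change was 0.10 (SE 0.32). A second, dimmer Gper1 probe set, averaging 4.4, read 3.24, 3.35 and 3.42 with 4-OHT and 4.55, 5.31 and 4.21 with vehicle. There the groups did not overlap and the change was -1.35, so the 2 probe sets of this gene disagreed. The aryl hydrocarbon receptor gene Ahr read 8.52, 7.89 and 8.16 with 4-OHT and 8.69, 7.92 and 8.37 with vehicle. Each pair was slightly lower, by 0.17, 0.03 and 0.21, while the groups overlapped (change -0.14, SE 0.09). Its partner Arnt changed by 0.08 (SE 0.16), the estrogen-related receptor Esrra by 0.15 (SE 0.17) and Ebp by -0.13 (SE 0.10). Over the 13 tested receptors and partners the median change was -0.00, and 12 had an interval within 2-fold (91.2% of all genes did).

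Estrogen-responsive genes went in both directions. Of the 16 tested, 4 were higher in all 3 pairs (12.3% of all genes were), 2 were lower in all 3 (13.3%) and the median change was -0.02, beside -0.00 over all genes. At an unadjusted p under 0.05, 4 were higher (2.38% of all genes were) and 1 was lower (3.18%), and 0 passed the adjusted threshold. The 4-OHT arrays lay wholly above the vehicle arrays for 2 of the 16 (2.43% of all genes) and wholly below for 0 (1.84%). Nrip1, a corepressor that estrogen induces, read 6.93, 6.37 and 6.28 with 4-OHT against 6.48, 5.97 and 5.79 with vehicle. Every pair was higher by a similar amount, although the groups overlapped, and the change was 0.45 (SE 0.14, limma adjusted p = 0.90). The other 5 Nrip1 probe sets, from brighter to dimmer, gave 0.06, -0.21, 0.40, -0.21 and 0.93, so the probe sets disagreed. The one at 0.40 was higher in all 3 pairs. Tgfa, a growth factor of the EGF family, read 6.18, 5.90 and 5.90 against 5.84, 5.47 and 5.31, which do not overlap (change 0.45, SE 0.18, limma adjusted p = 0.90). Its other 2 probe sets, both dimmer, gave 0.14 and 0.37. Some brighter members, added after their values were seen, stayed close to 0. Igfbp4, which binds insulin-like growth factors, changed by -0.02 (SE 0.04) and the lysosomal protease Ctsd by 0.05 (SE 0.06). Tff1, a secreted mucosal peptide, changed by -0.12 (SE 0.10). The progesterone receptor gene Pgr and Greb1, both classic estrogen targets, were too dim to be tested.

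Targets of the aryl hydrocarbon receptor went up in some pairs and down in others. Of the 10 tested, 0 were higher in all 3 pairs (12.3% of all genes were) and 0 were lower in all 3 (13.3%). With limma 0 had an unadjusted p under 0.05 (5.56% of all genes did), and all 10 had intervals within 2-fold (91.2%). Cyp1b1, a detoxifying oxidase whose upstream stretch is printed above, read 11.71, 11.47 and 11.47 with 4-OHT and 11.67, 11.60 and 11.29 with vehicle (change 0.03, SE 0.06). Tiparp, which feeds back on the receptor, read 10.58, 10.48 and 10.65 against 10.66, 10.53 and 10.39 (change 0.04, SE 0.07). On these probe sets the groups overlapped and the pairs disagreed in sign for both genes. A second bright Cyp1b1 probe set read 9.76, 9.46 and 9.03 against 9.61, 9.31 and 8.88, higher in each pair with overlapping groups (change 0.15, 95% interval -0.01 to 0.30). Cyp1a1, the target most often used as a readout, changed by -0.00 with a wider interval of -0.54 to 0.53, and the receptor's repressor Ahrr by -0.13 (SE 0.21). The median over the list was -0.04, and it was -0.24, -0.08 and 0.21 in the single pairs.

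Medians over genes that hold these letters near their starts lay around 0, as over all genes. In the 250 bases before the listed starts, on either strand, GCGTG was found in 9250 of 32851 RefSeq promoters (28.2%). It was found for 4462 of the 8874 tested genes with a listed promoter, and those had a median change of -0.00. AGGTCA was found in 4607 promoters (14.0%), with a median change of 0.00 over 1123 tested genes. The full palindrome GGTCANNNTGACC was found in 21 (0.0639%), of which 1 belonged to a tested gene, whose change was -0.05. The p53 pair CATGNNNNNNCATG was found in 161 promoters (0.490%), and the 29 tested genes with it had a median of -0.06 in uninfected cells and -0.00 in p53ER cells. Of the 8 tested receptor targets with a listed promoter, 5 held GCGTG, and their median change was -0.00. The p53 pair set did not rise even in p53ER cells, where the listed p53 targets did. Medians of such broad sets therefore cannot show whether genes under these elements responded. A match describes letters only, and the searches for AGGTCA and for the palindrome can overlap because both hold GGTCA.

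The p53 targets, which the fusion is meant to raise, were more often lower than higher in all pairs with the drug alone, by small amounts. Of the 34 tested, 2 were higher in all 3 uninfected pairs (12.3% of all genes were), 10 were lower in all 3 (13.3%), and the median change was -0.03. Their changes ran from -0.55 to 0.55, and 31 had intervals within 2-fold (91.2% of all genes did). In p53ER cells the same genes had a median of 0.80, 23 were higher in all 3 pairs where 12.2% of all genes were, and 8 were over 2-fold higher. In the direct test given below, 14 of the 34 had a larger effect in p53ER cells at an unadjusted p under 0.05 with limma (1.47% of all genes did). At the adjusted threshold 0 passed.

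Mdm2 encodes the ubiquitin ligase that degrades p53. It read 6.99, 7.37 and 7.54 with 4-OHT and 6.96, 7.87 and 7.88 with vehicle in uninfected cells. The groups overlapped, with pair 1 level and the others lower, and the change was -0.27 (95% interval -0.54 to 0.00). A second probe set of nearly the same brightness gave 0.03 (95% interval -0.25 to 0.30). In p53ER cells Mdm2 rose by 2.92 (SE 0.20) on the first probe set.

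Cdkn1a (p21), which halts the cell cycle, read 7.02, 7.12 and 7.73 with 4-OHT and 7.64, 7.45 and 7.92 with vehicle. All 3 pairs were lower, by 0.61, 0.33 and 0.19, although the groups overlapped. The change was -0.38 (95% interval -0.63 to -0.13, limma adjusted p = 0.90), and the dimmer Cdkn1a probe set gave 0.45 (95% interval -0.30 to 1.20). In p53ER cells the change was 2.19 (SE 0.15). The p53 pair upstream of this gene is printed above.

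Pmaip1 (Noxa), which promotes cell death, was near the floor at 4.18, 3.66 and 4.54 with 4-OHT and 4.70, 5.02 and 4.31 with vehicle. Pair 3 was higher and the others lower, and the change was -0.55 with a wide interval of -1.53 to 0.43. It changed by 3.38 (SE 0.23) in p53ER cells. Phlda3, an inhibitor of Akt, read 8.21, 8.42 and 8.30 against 8.43, 8.62 and 8.40, lower in each pair with overlapping groups (change -0.18, SE 0.08). Ccng1, which brings a phosphatase to Mdm2, changed by -0.10 (SE 0.10) and by 2.11 (SE 0.38) in p53ER cells. Both p53 targets that were higher in every uninfected pair were modest: Mdm4, a p53 inhibitor, changed by 0.42 (SE 0.20) and Rrm2b, which supplies nucleotides for repair, by 0.40 (SE 0.18). In p53ER cells they changed by -0.19 (SE 0.32) and 0.31 (SE 0.30).

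Zfp365 read 4.41, 4.01 and 4.84 with 4-OHT and 4.30, 3.83 and 4.28 with vehicle. Each pair was higher, by 0.11, 0.18 and 0.56, the groups overlapped and the interval of the change was wide (0.28, -0.66 to 1.23). The second Zfp365 probe set gave -0.07. In p53ER cells the first probe set averaged 4.38 with vehicle and 6.38 with 4-OHT.

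**Figure D2:**
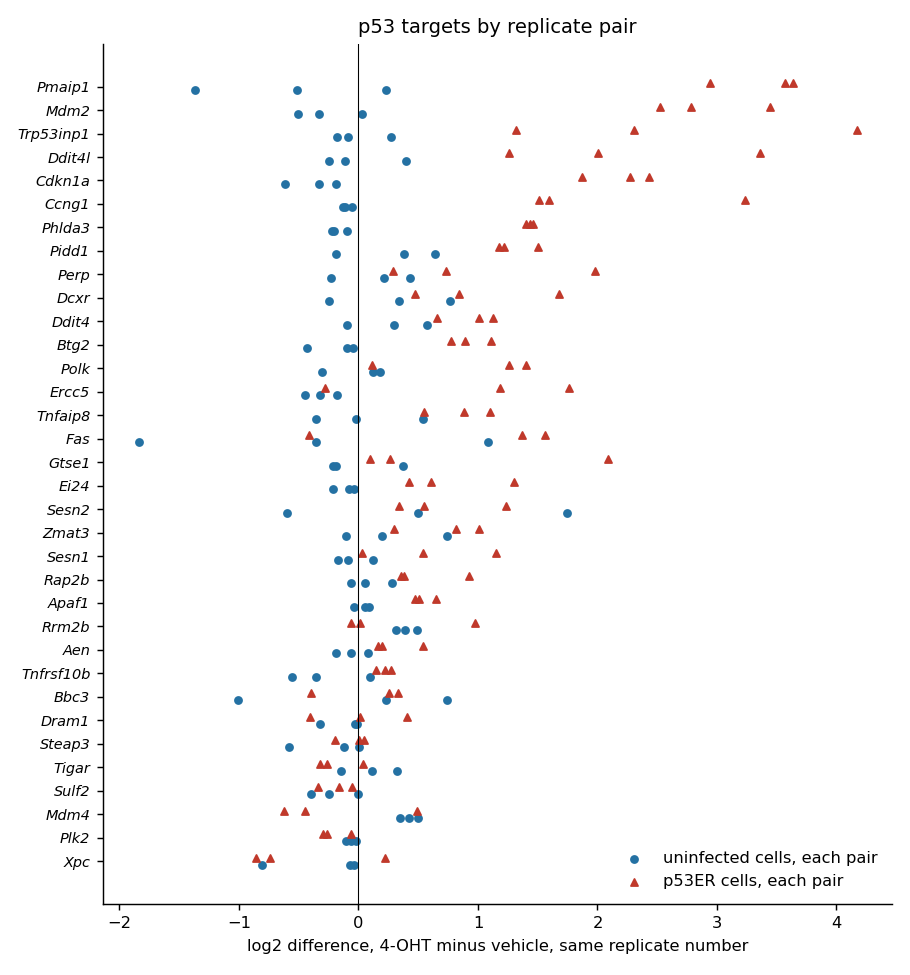
Paired log2 differences, 4-OHT minus vehicle, for the 34 p53 targets, ordered by their mean change in p53ER cells. Blue points are the 3 uninfected pairs and red triangles the 3 p53ER pairs. The uninfected points of Mdm2, Cdkn1a, Ccng1 and Phlda3 lie near or below 0, clear of the p53ER triangles, while those of the lower genes mix with them.

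The difference between the 2 kinds of cell was tested directly over the 12 arrays at 4 h. Of 10916 genes, 0 (0%) passed the adjusted threshold with limma, with 160 higher (1.47%) and 162 lower (1.48%) at an unadjusted p under 0.05. The smallest adjusted p was 0.0778, shared by Mdm2, whose 4-OHT effect was 3.19 larger in p53ER cells (SE 0.40), and Phlda3, at 1.61 (SE 0.22). Next came Pmaip1 at 3.93 (SE 0.59) and Cdkn1a at 2.57 (SE 0.38), both with a limma adjusted p of 0.124. Of the 34 p53 targets, 29 had a larger effect in p53ER cells, 14 of them at an unadjusted p under 0.05, and 0 differed the other way at that level. Within the p53ER arrays alone, 4 genes passed (0.0366%): Mdm2, Cdkn1a, Pmaip1 and Phlda3. Over all genes in those arrays, 265 were higher (2.43%) and 219 lower (2.01%) at an unadjusted p under 0.05.

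The call for a difference depended on the setting. Without the filter on dim genes, Mdm2 and Phlda3 passed, both at a limma adjusted p of 0.0498. With all 18 arrays in the fit Mdm2 passed at 0.00735, and with arrays weighted by quality Mdm2, Cdkn1a and Phlda3 passed at 0.0114.

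Genes that were higher with 4-OHT in p53ER cells had no shared direction in uninfected cells. There were 75 genes over 2-fold higher and higher in all 3 pairs in p53ER cells. Pair 1 there holds the vehicle array that lay apart, and some genes owe their mean to that pair. Cenpe, for example, was higher by 3.09, 0.12 and 0.39 in the 3 p53ER pairs. In uninfected cells 8 of the 75 were higher in all 3 pairs, where 12.3% of all genes were, and 0 were over 2-fold higher. Their median change was 0.00. Intervals lay within 2-fold for 54 of the 75, a smaller share than the 91.2% of all genes, so their changes were bounded less firmly than those of genes in general. Nlrc5, a regulator of MHC class I genes, is an example. It read 4.38, 4.30 and 4.95 with 4-OHT and 5.37, 4.58 and 5.42 with vehicle in uninfected cells, lower in each pair (change -0.58, SE 0.32), and changed by 2.09 (SE 0.43) in p53ER cells.

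List medians of the wider set of pathways were close to 0. Over 26 lists with 450 tested genes, 0 genes passed the adjusted threshold with limma, and 25 lists had a median within 0.1 of 0. List medians ran from -0.13 to 0.09, and from -0.32 to 0.32 within single pairs, the widest being lists of 8 or fewer tested genes. Under the alternatives they ran from -0.20 (2 muscle markers) to 0.30 (8 neural markers), both without replicate 3. In 10 lists the 3 pair medians shared a sign.

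**Figure D3:**
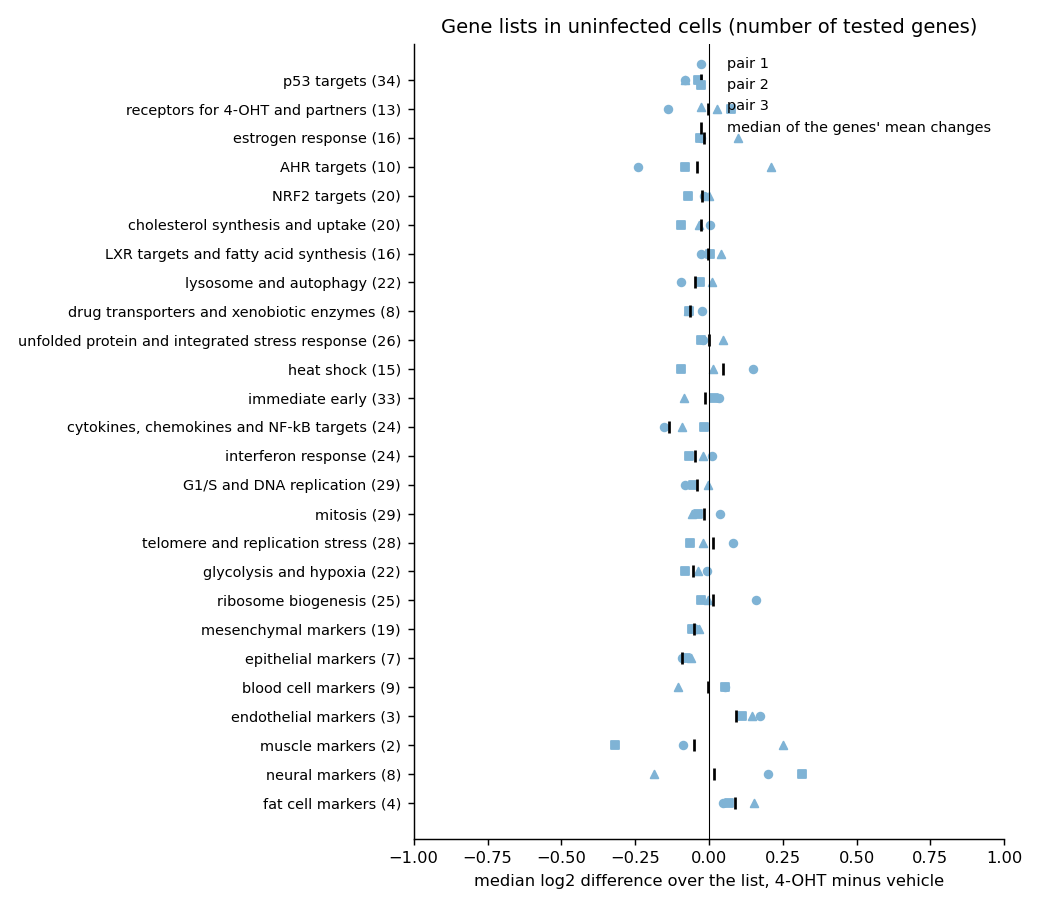
Median log2 difference, 4-OHT minus vehicle, over each of 26 gene lists in uninfected cells, with the number of tested genes in brackets. Black bars are the median of the genes' mean changes and blue symbols the median within each pair. All bars lie between -0.13 and 0.09, and the symbols lie on both sides of 0 in 16 of the lists.

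Inflammatory genes had the lowest list median. Of 24 tested cytokines, chemokines and NF-kB targets, 9 were lower in all 3 pairs (13.3% of all genes were) and 0 were higher in all 3, with a median of -0.13 and single pairs at -0.15, -0.02 and -0.09. At an unadjusted p under 0.05, 5 were lower (3.18% of all genes were), and 24 of 24 had intervals within 2-fold (91.2%). Il6, an inflammatory cytokine, read 5.85, 5.08 and 6.19 with 4-OHT and 6.38, 5.67 and 6.49 with vehicle (change -0.48, SE 0.17). The chemokine Ccl7 read 7.84, 7.31 and 8.61 against 8.01, 7.78 and 8.73 (change -0.25, SE 0.10). In both genes each pair was lower while the replicates differed more from each other than the treatments did, so the groups overlapped. Lif, a cytokine of the same family as Il6, changed by -0.31 (SE 0.09), Cxcl10 by -0.28 (SE 0.11) and Ccl2 by -0.15 (SE 0.06). The NF-kB feedback genes Nfkbia and Tnfaip3 changed by -0.09 (SE 0.05) and -0.19 (SE 0.10). All genes named here were lower, while 7 of the 24 were higher on the mean in uninfected cells, by up to 0.13. In p53ER cells the list's median was 0.13 and 18 of 24 were higher on the mean.

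Genes of stress and drug handling gave few shared directions. Of 20 tested NRF2 targets, 3 were higher in all 3 pairs (12.3% of all genes were) and 5 lower (13.3%), with a median of -0.02. Gsta4, a glutathione transferase, read 6.68, 6.23 and 8.91 against 6.10, 5.33 and 8.79, higher in each pair but by unequal amounts (change 0.53, SE 0.15), while Srxn1 changed by -0.14 (SE 0.07) and Nqo1 by -0.03 (SE 0.06). Among 8 tested drug transporters and xenobiotic enzymes, Cyp2b10 read 4.34, 5.08 and 3.97 against 5.49, 5.69 and 5.22. Its groups did not overlap (change -1.01, SE 0.29), and its 2 dimmer probe sets gave 0.82 and 0.51, the other way. Abcg2, a drug efflux pump, changed by -0.22 (SE 0.12).

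The unfolded protein and integrated stress list of 26 had a median of -0.00, with Trib3 at -0.35 (SE 0.15), Ddit3 at 0.22 (SE 0.12), Atf4 at 0.11 (SE 0.07) and the chaperone Hspa5 at -0.03 (SE 0.05). In the heat shock list of 15 the median was 0.05, with the co-chaperone Chordc1 at 0.16 (SE 0.10) and Hspa8 at -0.13 (SE 0.04). The other Hspa8 probe sets, from brighter to dimmer, gave -0.04, 0.05 and 0.31, so the probe sets disagreed. All 15 heat shock genes had intervals within 2-fold (91.2% of all genes did).

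Genes of cholesterol synthesis and uptake had a median change of -0.03. All 20 tested had intervals within 2-fold (91.2% of all genes did), and 2 were higher and 3 lower in all 3 pairs (12.3% and 13.3% of all genes were). Hmgcs1, an early enzyme of the pathway, changed by -0.02 (SE 0.08), Sqle by -0.04 (SE 0.09) and Insig1, which holds the pathway's activator back, by -0.09 (SE 0.11). Cyp51 and Sc5d, which act late in the pathway, were lower in each pair at -0.13 (SE 0.10) and -0.14 (SE 0.09). The other Cyp51 probe sets, both dimmer, gave -0.09 and 1.08, and the one at 1.08 was higher in all 3 pairs. Of 16 LXR targets and fatty acid genes, 15 had intervals within 2-fold and 11 within 0.5 on the log2 scale, and the lowest lower bound was -1.41. Among them Elovl6, which lengthens fatty acids, was higher in each pair at 0.29 (SE 0.13). The desaturase Fads2 was also higher in each pair at 0.28 (SE 0.10), yet a probe set of nearly equal brightness gave -0.28. All 22 lysosome and autophagy genes had intervals within 2-fold, with the protease Ctsb at -0.09 (SE 0.04) and the autophagy gene Wipi1 at -0.11 (SE 0.10).

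Growth and proliferation genes had list medians close to 0. All 29 tested G1/S and replication genes and all 29 mitosis genes had intervals within 2-fold, with medians of -0.04 and -0.02. Of all genes 91.2% had such intervals, and the share was higher among bright genes, as given below. Cdk2, a kinase of the G1/S transition, changed by -0.21 (SE 0.10), the cyclin Ccna2 by -0.13 (SE 0.06) and the replication helicase subunit Mcm2 by 0.02 (SE 0.07). The kinetochore motor Cenpe was lower in each pair (-0.26, SE 0.11) and the checkpoint kinase Bub1 higher in each (0.16, SE 0.10). In the list of 28 telomere and replication stress genes the median was 0.01, with the checkpoint kinase Chek1 at -0.12 (SE 0.15). The other Chek1 probe sets, from brighter to dimmer, gave 0.26, 0.33, -0.90 and -0.52.

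Of 33 immediate early genes, which respond first to growth signals, 6 were higher and 4 lower in all 3 pairs, where 12.3% and 13.3% of all genes were. Egr1 read 8.82, 7.88 and 8.73 with 4-OHT against 8.62, 7.46 and 8.57, higher in each pair with overlapping groups (change 0.26, SE 0.09). Dusp6, a phosphatase that damps ERK signalling, was higher in each pair at 0.24 (SE 0.12), while Myc changed by -0.00 (SE 0.08). Ribosome biogenesis genes had a median of 0.01 over 25, with Noc2l at -0.23 (SE 0.10) and Nip7 at 0.12 (SE 0.08). Glycolysis and hypoxia genes had a median of -0.05 over 22, with Pdk1, a kinase that inhibits pyruvate dehydrogenase, at 0.39 (SE 0.18) and Bnip3 at -0.20 (SE 0.12). Of 24 interferon-responsive genes 3 were higher and 3 lower in all 3 pairs, close to the 12.3% and 13.3% of all genes, and the transcription factor Irf1 was at 0.25 (SE 0.10).

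Summed over each list, the signals of cell type markers overlapped between the groups. The labels give no tissue, and defining markers of blood (Ptprc), epithelial (Cdh1), endothelial (Pecam1) and muscle (Myod1) cells were on the array but too dim to be tested. Summed over the 19 tested mesenchymal markers, the scaled signal ran from 55120 to 73568 with 4-OHT and from 57512 to 78167 with vehicle. Over 7 tested epithelial markers it ran from 241 to 435 and from 258 to 447. For blood cell markers it ran from 678 to 1313 and from 637 to 1280 over 9 genes, and for endothelial, muscle, neural and fat cell markers the ranges of the groups overlapped as well. Of the 19 mesenchymal markers 9 were lower in all 3 pairs (13.3% of all genes were) and 1 higher (12.3%), 6 were lower at an unadjusted p under 0.05 (3.18%), and the median was -0.05. This list is bright, and bright genes as a whole leaned toward lower values, as given below. After quantile normalization its median was 0.00. Lum, a matrix proteoglycan, read 5.60, 4.77 and 4.65 against 6.24, 5.17 and 5.46 (change -0.62, SE 0.23), and the related Dcn changed by -0.20 (SE 0.09). Vim, the filament protein vimentin and among the brightest genes, changed by -0.13 (SE 0.04) and Col1a1, a collagen chain, by -0.04 (SE 0.06). Of the 7 tested epithelial markers 3 were higher on the mean, and the changes ran from -0.32 to 1.17. At an unadjusted p under 0.05, 1 of them was higher (2.38% of all genes were) and 1 lower (3.18%). The epithelial marker Epcam changed by -0.31 (SE 0.14), and its other probe set, near the floor with a mean of 2.51, gave -0.03. The other tested markers of these cell types that went one way in every pair were Esam at 0.58 (SE 0.24), Cd8a at 0.43 (SE 0.18), Cd74 at 0.51 (SE 0.29), Csf1r at -0.18 (SE 0.15), Des at -0.56 (SE 0.30), Tubb3 at 0.50 (SE 0.15), Plin4 at 0.15 (SE 0.17) and Fabp4 at 0.27 (SE 0.14). For Esam and Cd8a the groups did not overlap. The other Fabp4 probe sets, all dimmer, gave -0.00, 0.07 and -0.71. Fewer cells of a type and less RNA per cell cannot be told apart in such samples.

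How firmly a gene's lack of movement was measured depended on its brightness. Sorted by mean level into 5 groups of 2183 or 2184 genes, 62.5% of the dimmest group had an interval within 2-fold, against 94.4%, 99.5%, 99.7% and 99.8% in the brighter groups. The median SE fell from 0.30 to 0.07 from the dimmest to the brightest. In the brightest group, 34 genes were higher and 170 lower at an unadjusted p under 0.05, and 165 were higher and 480 lower in all 3 pairs, while their median change was only -0.02. After quantile normalization, which gives all arrays 1 distribution of signals and so evens out such a lean by construction, the counts were 53 higher and 70 lower. The cytoplasmic actin Actg1 went from -0.15 to -0.04 and the ribosomal protein gene Rps24 from -0.16 to -0.03. Tubb6, a beta tubulin, went from -0.26 to -0.24 and the phosphatase subunit Ppp1ca from -0.27 to -0.24, so these kept their values. The 5 bright genes compared in this way, with B2m at -0.19 and -0.10, were chosen after their values were seen. Before scaling, the trimmed mean of the array was higher with 4-OHT in each pair, by 1.22, 1.07 and 1.07 times, and its part in the lean was not tested.

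**Figure D4:**
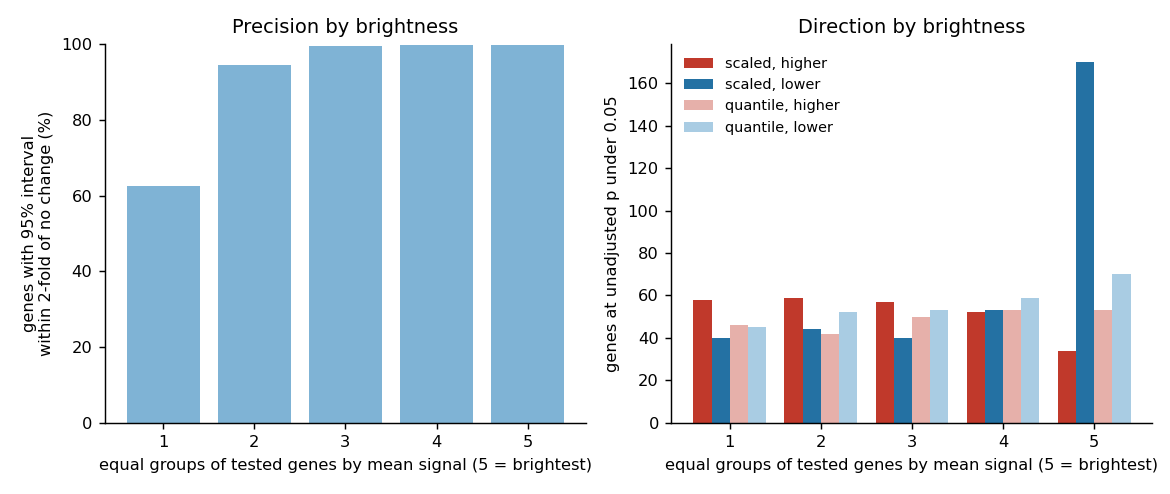
Left, the share of genes (%) whose 95% interval lay within 2-fold of no change, in 5 equal groups by mean signal (5 is the brightest). Right, the number of genes higher or lower at an unadjusted p under 0.05 in each group, after scaling (dark) and after quantile normalization (light). The share rises from 62.5% to 99.8%, and the excess of lower genes in the brightest group, 170 against 34, is 70 against 53 after quantile normalization, which evens it out by construction.

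The genes ranked as most consistent were dim. They were ranked by the smallest of their 3 paired differences among genes whose groups did not overlap. That rule favours dim genes, whose differences spread more (median SE 0.30 in the dimmest group, 0.07 in the brightest). Their size and dimness are therefore a description of how they were chosen and not a call. The 10 most consistent higher genes changed by 0.75 to 2.19 and the 10 most consistent lower genes by -0.85 to -1.73. Their mean levels ran from 4.12 to 5.42 and from 4.46 to 6.49.

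Cep128, a protein of centriole appendages, had the largest change, reading 5.97, 6.82 and 6.77 with 4-OHT and 4.02, 3.60 and 5.34 with vehicle (2.19, SE 0.32, limma adjusted p = 0.39). At 0 h it read 5.67, 6.16 and 6.38, above the 3 vehicle arrays, on which the gene was in part chosen. Its other probe sets, all dimmer, gave -0.18, 0.82 and 0.34. Rtbdn read 5.39, 5.82 and 5.82 against 2.85, 4.52 and 3.72, and the methionine sulfoxide reductase Msrb2 read 5.23, 5.53 and 4.71 against 3.65, 4.05 and 2.92. The others on the higher side were the potassium channel subunit Kcng2 at 1.60, Rasd2 at 1.40, Gm1123 at 1.15, the nuclease subunit Eme2 at 0.92, Rph3al at 0.91, the GABA-B receptor subunit Gabbr1 at 0.84 and the morphogen Shh at 0.75. The other Gabbr1 probe sets, all dimmer, gave 0.12, -1.40 and -0.50, and the one at -1.40 was lower in all 3 pairs. Those of Eme2 gave 0.51 and 0.19. For 10 of the 10 higher genes the 0 h mean was nearer to the 4-OHT mean than to the vehicle mean. The genes were chosen on those same 4-OHT and vehicle arrays, and no share over other genes is given. The count therefore describes the chosen genes only and does not show which group moved.

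Zap70, a kinase of T cell receptor signalling, was the brightest of the lower genes, at 5.84, 4.83 and 6.19 with 4-OHT and 7.23, 7.61 and 7.21 with vehicle (-1.73, SE 0.30, limma adjusted p = 0.68). At 0 h it read 7.28, 7.96 and 7.57, level with vehicle. Its next probe set gave -1.11 and its dimmest 0.36. With replicate 2 left out, which held its largest difference, Zap70 passed at a limma adjusted p of 0.027, with a change of -1.20. Plxnb1, a semaphorin receptor, read 4.48, 3.65 and 4.42 against 5.90, 5.99 and 5.31, and Gtpbp6 read 4.89, 4.33 and 4.04 against 6.25, 5.68 and 5.83. The rest were Rpusd3 at -1.44, the inositol kinase Itpkc at -1.17, the matrix protein Omd at -1.11, the urothelial protein Upk2 at -1.09, the apolipoprotein Apoa2 at -1.07, the tetraspanin Tspan32 at -0.87 and 4930556N13Rik at -0.85. The dimmer Itpkc probe set gave 0.46, the other way. For 4 of the 10 lower genes the 0 h mean was nearer to the 4-OHT mean. In p53ER cells, a separate set of arrays, 6 of the 10 higher genes and 5 of the 10 lower genes changed in the same direction on the mean, with changes from -0.53 to 0.65 and from -0.91 to 0.60.

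**Figure D5:**
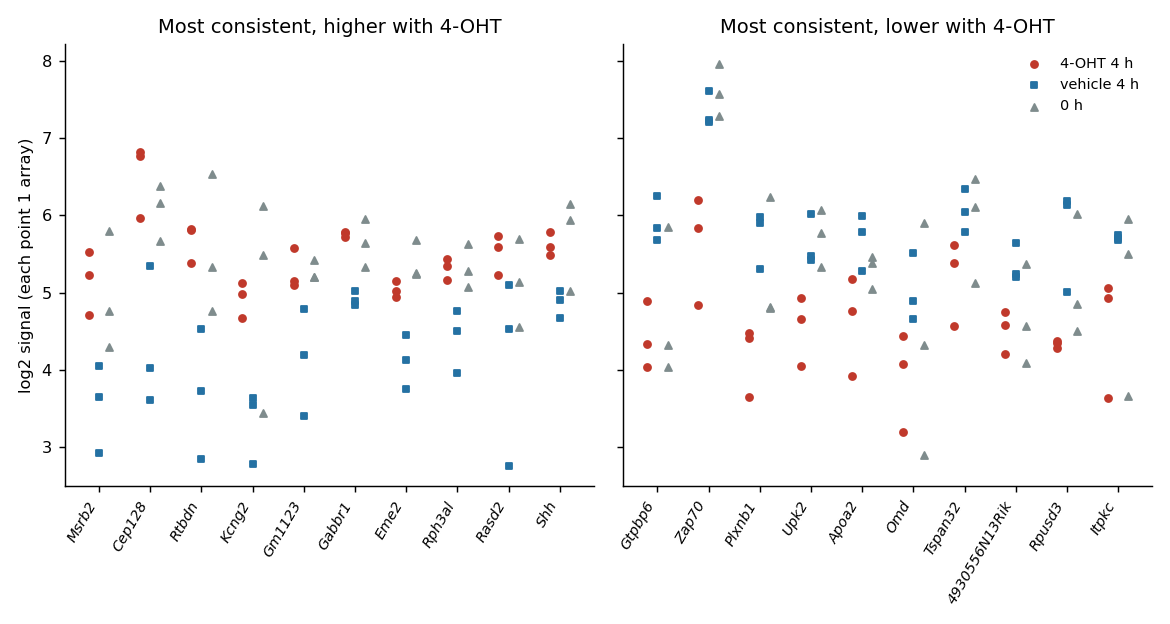
Log2 signal of the 10 most consistently higher (left) and lower (right) genes in uninfected cells, 1 point per array, with 4-OHT in red, vehicle in blue and 0 h in grey. The groups were chosen not to overlap. For each of the 10 higher genes the mean of the grey points lies nearer to that of the red, although single grey points lie among the blue. This describes genes chosen on the red and blue points and does not show which group moved. Most lie between 3 and 6, where a signal of 0 would read 1.97.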

How the data were processed

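Total RNA was labelled with biotin and hybridised to Affymetrix mouse arrays, 1 per sample. The authors deposited linear signal intensities for 45101 probe sets, made with MAS5 per the submitters' processing notes, with version and scaling target not given in the sources used here. The annotation listed 34958 probe sets with 1 gene, 932 with several and 9211 with none, and Entrez IDs tied 34754 of them to RefSeq's GRCm38.p6 gene table. Some genes are not analysed here. The 2% trimmed means of the 18 arrays were set to their median, 78.5 (the 6 arrays ran from 47.5 to 120.5), and log2(signal + 3.93) was used, the offset being 5% of 78.5. Such an offset shrinks the changes of dim genes. Each of 18194 genes was read by its brightest probe set, and the upper 60% by mean level were tested (dimmest 4.67).

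Models were fitted with limma 3.58.1 in R 4.3.3, with a trended, robust prior, two-sided p-values and Benjamini-Hochberg adjustment at 0.05. The uninfected fit used its 6 arrays blocked by replicate number (residual degrees of freedom: 2), the difference between cells the 12 arrays at 4 h (6 degrees). An exact permutation test cannot go below p = 0.25 for 3 pairs. Numbers paired the arrays: deviations from group means correlated at 0.52, 0.31 and 0.62 between equal numbers. What a number stands for is not given. The methods were checked on simulated data. The number of arrays limits the precision.

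The comparison, the members and the 26 lists (574 genes, 530 on the array) were chosen with earlier results of these data known. Genes were named by rule: receptors, Mdm2, Cdkn1a, Pmaip1 and Zfp365; the 10 each way past the threshold or, failing that, with the largest smallest paired difference among groups that do not overlap; up to 2 per list in all 3 pairs, or the largest change; and 5 each way for the difference. Phlda3, Ccng1 and the brighter, better known list members were added after their values were seen. Alternatives covered the block, arrays in the fit, filter, offset, normalization, probe set rule, array weights and single replicates.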

Additional observations from a re-analysis of the deposited data

How the results depend on the processing

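The count of genes past the threshold for 4-OHT against vehicle was 0 in 13 of 15 alternatives. It ran from 0 to 2 when 1 replicate was left out: without replicate 2, Galm (-0.81) and Zap70 (-1.20) passed at a limma adjusted p of 0.027, and without replicate 3, Gpank1 (1.10) passed at 0.0139. Without the replicate block the count was 0, with 62 genes higher and 45 lower at an unadjusted p under 0.05, against 260 and 347 with the block, and the share with intervals within 2-fold was 84.1%. That share ran from 63.2% with no filter on dim genes to 99.4% with the upper 40% kept. For the difference between cells the count was 2 with no filter on dim genes, 1 with all 18 arrays and the replicate block, 3 with array weights and 0 in the main setting. With 1 replicate left out the change of Esr1 ran from -0.66 to 0.03 (without replicate 2), that of Gper1 from -0.07 (without replicate 3) to 0.21 and that of Ahrr from -0.44 to 0.07 (without replicate 2), so the sign turned in each. For 71 named genes, 283 of 283 values under quantile normalization, other offsets and array weights and 210 of 213 with a replicate left out kept their direction, but other probe sets of some genes, such as Gper1 and Cdkn1a, went the other way. List medians moved beyond the SD of the pairs in 16 of 182 cases, the range being -0.20 to 0.30. Without 3 arrays of other groups that lay apart, an alternative chosen after seeing the data, the count was 0, with 112 genes higher and 82 lower. In the dimmest of the 5 groups by brightness 62.5% of genes had intervals within 2-fold, so for the rest a 2-fold change was not excluded.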
